A study of Mus musculus with 12 samples.

Results

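Lysine crotonylation was mapped in the dorsal hippocampus of mice by ChIP-seq, in which an antibody, here one against crotonyl-lysine in any protein (pan-Kcr), pulls down chromatin fragments that are then sequenced, and the learning peaks that lie outside protein-coding genes but within reach of one are described here. Such a region is a peak of the learning library on chromosomes 1 to 19 that overlaps no protein-coding gene body and whose nearest protein-coding gene end is more than 1 kb and at most 200 kb away. The rule selected 5252 of the 15844 autosomal learning peaks (33.1%, 95% interval 32.4 to 33.9%). They are called near-gene regions below. The others were 3169 peaks within 1 kb of a gene end, 5452 inside gene bodies and 1971 more than 200 kb from any protein-coding gene. The near-gene regions are intergenic with respect to protein-coding genes, and 1024 of them lay in the body of an annotated long noncoding RNA (lncRNA) gene or pseudogene.

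The series holds 12 libraries, of which the 2 pan-Kcr libraries were used. One came from C57BL/6J mice that were trained to recognize moved objects, the spatial object recognition task (learning), and the other from C57BL/6J mice kept in the home cage without training (homecage). Age, sex, the interval between training and dissection and the pooling of animals are not given in the sources used here. With 1 library per condition, no difference between learning and homecage has a replicate check and no test was made. The intervals are exact 95% intervals (Clopper-Pearson for shares, Poisson for densities) that cover counting error and treat neighbouring peaks as independent. A peak in bulk tissue does not show which cells carry the mark, and fewer marked cells cannot be told apart from less mark per cell. Peak lists carry no level of a marker gene, so the tissue label was not checked.

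Crotonylation adds a crotonyl group, made from crotonyl-CoA, to lysine residues. On histones it is placed by some of the acetyltransferases and removed by some of the deacetylases that also handle acetylation, and it is known from the start sites of active genes and from enhancers. Sequence between genes holds enhancers, which can act on a promoter many kilobases away, as well as the promoters of lncRNAs and of microRNA (miRNA) precursors. The gene nearest to a region is therefore a label of position and need not be the gene it acts on.

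The miRNA genes near these regions included all 3 annotated Mir9 loci and all 3 annotated Mir124a loci. miR-9 and miR-124 are among the most abundant miRNAs of the brain, where they act in neuronal differentiation. Mature sequences from RefSeq (GRCm38.p6) are shown 5′ to 3′ with the seed (bases 2 to 8), which pairs with target messenger RNAs, in capitals. They are a selection made after the values were seen. It holds the Mir9 products, Mir137, Mirlet7i, the touched genes Mir760 and Mir3093, and the Mir181 pair, which lies near 1 region. The 2 Mir181 products carry 1 seed, and the other seeds shown differ from one another.
mmu-miR-9-5p (Mir9-1, Mir9-2, Mir9-3): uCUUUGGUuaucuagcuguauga
mmu-miR-9-3p (the other arm): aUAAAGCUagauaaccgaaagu
mmu-miR-9b-3p (Gm51268, antisense at Mir9-2): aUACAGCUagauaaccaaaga
mmu-miR-137-3p (Mir137): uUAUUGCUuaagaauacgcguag
mmu-let-7i-5p (Mirlet7i): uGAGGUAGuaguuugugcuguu
mmu-miR-760-3p (Mir760): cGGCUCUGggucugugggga
mmu-miR-3093-5p (Mir3093): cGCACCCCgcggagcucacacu
mmu-miR-181c-5p (Mir181c): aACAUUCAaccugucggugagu
mmu-miR-181d-5p (Mir181d): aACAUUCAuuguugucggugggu

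Near-gene regions also covered promoters of lncRNA genes, and these were richer in CpG dinucleotides than the other lncRNA promoters. The promoters below run from 250 bases before to 50 bases after the annotated start, on the strand of the gene, with each CG in capitals, and were chosen after their values were seen. Lncpint is a lncRNA that p53 induces, and Mir9-3hg is the host gene of Mir9-3. Zmiz1os1 is transcribed opposite to Zmiz1. The first 3 were covered by regions that also overlap a homecage peak and hold 18 to 28 CG, and the last by a region of the learning list alone and holds 5.
Zmiz1os1, chr14:25378463-25378762, minus strand: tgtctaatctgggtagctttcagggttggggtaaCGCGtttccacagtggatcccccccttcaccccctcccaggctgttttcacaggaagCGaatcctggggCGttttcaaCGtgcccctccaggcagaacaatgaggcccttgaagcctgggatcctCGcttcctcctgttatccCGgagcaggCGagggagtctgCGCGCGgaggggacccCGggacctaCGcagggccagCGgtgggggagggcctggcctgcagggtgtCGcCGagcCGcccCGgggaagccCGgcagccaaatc
Lncpint, chr6:31218425-31218724, minus strand: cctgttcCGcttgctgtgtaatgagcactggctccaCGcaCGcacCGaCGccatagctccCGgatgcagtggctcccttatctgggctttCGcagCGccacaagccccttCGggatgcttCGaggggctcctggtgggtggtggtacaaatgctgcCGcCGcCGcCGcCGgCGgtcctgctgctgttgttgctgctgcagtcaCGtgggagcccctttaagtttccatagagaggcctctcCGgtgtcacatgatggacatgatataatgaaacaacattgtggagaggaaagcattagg
Mir9-3hg, chr7:79515185-79515484, plus strand: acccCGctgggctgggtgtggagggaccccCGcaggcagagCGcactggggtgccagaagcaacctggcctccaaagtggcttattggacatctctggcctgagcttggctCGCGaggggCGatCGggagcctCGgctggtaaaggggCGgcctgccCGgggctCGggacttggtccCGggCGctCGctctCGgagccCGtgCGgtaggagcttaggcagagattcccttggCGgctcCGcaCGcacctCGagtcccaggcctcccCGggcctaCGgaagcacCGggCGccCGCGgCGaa
3110015C05Rik, chr13:111229382-111229681, minus strand: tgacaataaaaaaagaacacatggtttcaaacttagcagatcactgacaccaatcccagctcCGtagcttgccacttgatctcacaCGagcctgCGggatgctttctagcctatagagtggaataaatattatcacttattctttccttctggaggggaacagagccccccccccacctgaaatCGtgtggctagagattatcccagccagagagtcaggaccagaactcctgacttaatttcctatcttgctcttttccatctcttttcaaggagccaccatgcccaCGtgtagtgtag

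Near-gene regions were narrow and spread over all 19 autosomes. The median width was 304 bp (25th to 75th percentile 201 to 423 bp, range 146 to 2602 bp), and 81 regions reached 1 kb. The sequence that meets the distance rule, called the territory, made up 928 Mb, or 38.6% of the autosomal span. It held 5.66 regions per Mb, from 3.52 on chromosome 18 to 8.37 on chromosome 4. The homecage list was far longer in the same territory, with 123530 peaks or 133 per Mb, from 122 on chromosome 16 to 152 on chromosome 7. Read depth is unknown for both libraries, and it cannot be told apart from the condition. Homecage peaks had a median width of 350 bp there.

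Of the near-gene regions, 2001 (38.1%, 36.8 to 39.4%) overlapped a homecage peak by at least 1 bp and are called shared. Of all autosomal learning peaks 42.8% did so. The share was lower than at gene ends (68.9%, 67.2 to 70.5%), near that in gene bodies (36.9%, 35.6 to 38.2%) and higher than beyond 200 kb from genes (30.0%, 28.0 to 32.1%). Outside the densest 1-Mb bins, described below, the share was 31.6% (30.2 to 33.0%), against 69.2% at gene ends, 33.4% (32.1 to 34.8%) in gene bodies and 29.1% (27.1 to 31.2%) beyond 200 kb, and the intervals of both of these overlap that of the regions. Over all bins, the difference from gene ends had the same direction on 19 of 19 chromosomes. The share lay above that of gene bodies on 9 chromosomes and above that of the distant peaks on 14. Homecage peaks covered 5.37% of the territory, and a stretch of 304 bp, the median width of the regions, would touch a homecage peak at 9.43% of the positions in the territory.

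The other 3251 regions, called learning-only, mostly lay close to homecage peaks without touching one. The nearest homecage peak was a median of 1451 bp away (25th to 75th percentile 540 to 3487 bp). It was within 500 bp of 23.7% of the learning-only regions and within 5 kb of 84.4%. Accepting a homecage peak within 500 bp as a partner raised the shared regions to 52.7%. Keeping as many of the widest homecage peaks as there are learning peaks lowered them to 12.8%.

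Sharing rose with width. Of the narrowest quartile of regions 28.1% (25.7 to 30.6%) were shared and of the widest 56.5% (53.8 to 59.2%). Stretches of the median widths of these quartiles, 159 and 520 bp, would touch a homecage peak at 7.49% and 12.3% of positions. Shared regions had a median width of 357 bp against 279 bp for learning-only ones. Their homecage partners were wider still, with a median of 620 bp, and exceeded the learning region in 74.2% of 2001 cases.

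**Figure D1:**
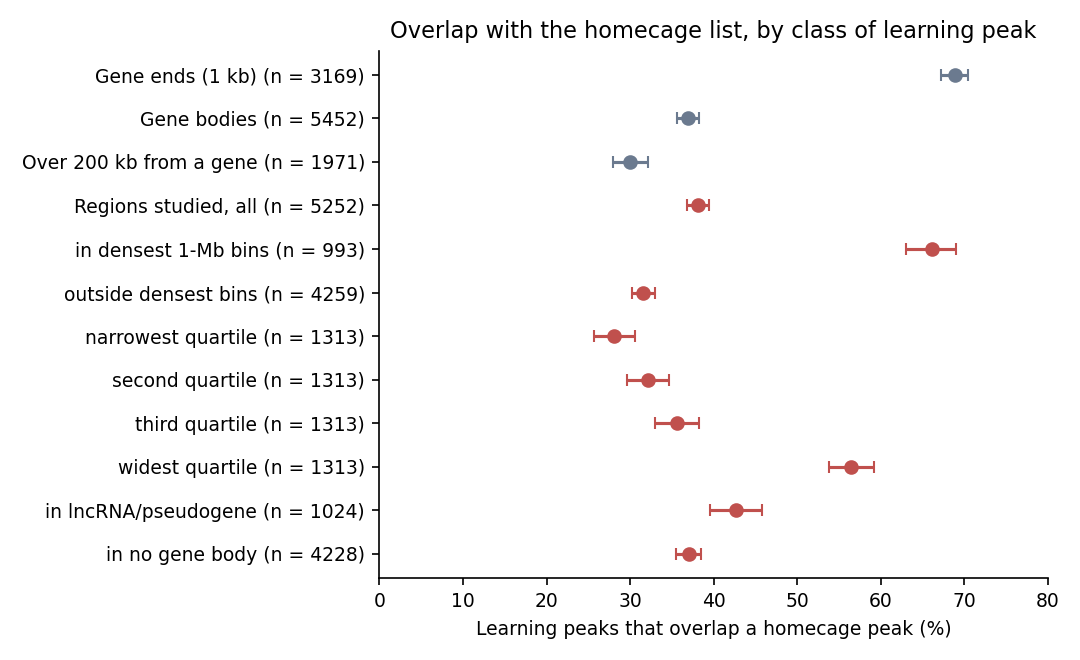
Share of learning peaks (%, horizontal axis) that overlap a homecage peak, for the 3 other classes of autosomal learning peaks (grey) and for the near-gene regions and their subsets (red). Points are shares and bars are exact 95% intervals, and the share ranges from 28.1% in the narrowest quartile of the regions to 66.1% in the densest 1-Mb bins, with gene ends at 68.9%.

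Part of the regions were concentrated in a few dense stretches of the genome. The 24 of 2413 1-Mb bins with the most learning peaks (33 to 190 a bin) held 993 regions (18.9%) and 1.58% of the territory. They held 3.06% of the homecage peaks of the territory. The bins were chosen by the learning peaks, which include the regions. A larger share of regions than of homecage peaks there thus follows in part from the choice. In these bins 66.1% (63.0 to 69.0%) of the regions were shared, and a stretch of 304 bp would touch a homecage peak at 24.6% of positions. Outside them 31.6% (30.2 to 33.0%) of 4259 regions were shared, with 9.19% of the territory touched.

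The 4 gaps with most regions are given first. The gap between Zfp980 and Zfp987, KRAB-type zinc finger genes on chromosome 4, held 66 regions, 50 of them shared, and 121 homecage peaks. The gap between 9530057J20Rik and Gm15319 on chromosome 8 held 50 regions, 41 of them shared. The gap between Obox7 and Obox2, oocyte homeobox genes on chromosome 7, held 45 with 31 shared, and that between Prl2c3 and Prl2c2, placental prolactin-family genes on chromosome 13, held 35 with 20 shared. Zinc finger, Obox and Prl2c genes lie in clusters of similar copies, between which reads can be misplaced, so the positions of these peaks are uncertain.

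Counted by nearest gene, Obox2 was nearest to 58 regions, Zfp980 to 55, Tcp10c to 38, 9530057J20Rik to 33, Gm15319 to 32 and Prl2c3 to 32, and all of these regions lay in the densest bins. At the other end, 1776 of the 2722 gaps with a region held 1 only. In all, 17.4% of 15684 gaps held a region, and 46 gaps with at least 10 held 15.3% of all regions.

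**Figure D2:**
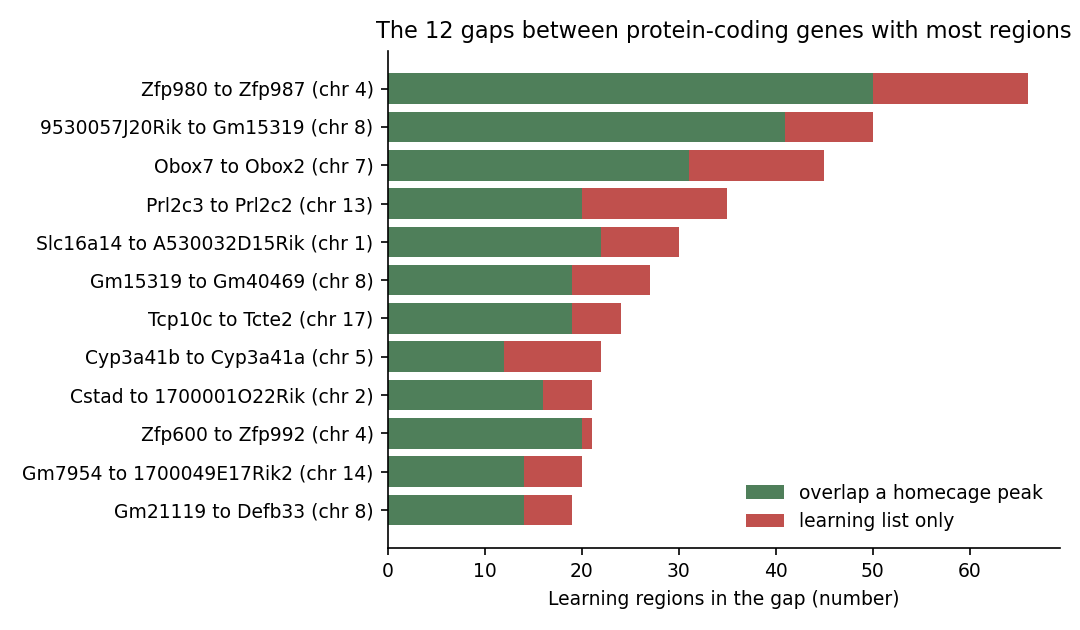
Number of near-gene regions (horizontal axis) in the 12 gaps between neighbouring protein-coding genes that hold most of them, split into regions that overlap a homecage peak (green) and regions of the learning list alone (red). The gap between Zfp980 and Zfp987 leads with 66 regions, and shared regions are the majority in each of the 12.

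Counted over all bins, regions lay in groups more often than the other classes did. Another learning peak was within 10 kb of 39.1% (37.8 to 40.5%) of them, compared with 22.3% of gene-end peaks, 31.5% of gene-body peaks and 23.7% of the distant peaks. Shared regions had such a neighbour in 58.5% of cases and learning-only regions in 27.2%. Outside the densest bins the value for all regions was 27.4%, which is below that of the gene-body peaks over all bins. No such value outside these bins was computed for the other classes, so the order there is not known.

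Among the widest regions, those outside lncRNA and pseudogene bodies are given first. The widest of all was a shared region of 2602 bp, chr4:3081815-3084416, near the vomeronasal receptor gene Vmn1r2 and at the proximal end of chromosome 4. It lay wholly within a homecage peak of 3980 bp. The next were regions of 2037 bp and 1937 bp, chr1:84989167-84991203 and chr1:85008358-85010294, upstream of Slc16a14. They overlapped homecage peaks of 1251 and 2965 bp.

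The widest learning-only regions were narrower. Those in no annotated body were 1411 bp (chr14:41455325-41456735, near Gm7954), 1285 bp (chr4:147655213-147656497, near Zfp979) and 1212 bp (chr5:15024757-15025968, near Gm17019), all in the densest bins. Homecage peaks lay 103, 505 and 1324 bp from them. Inside noncoding bodies the widest learning-only region was 1243 bp long (chr7:73594768-73596010), in the lncRNA Gm30149 near Chd2, the gene of a chromatin remodeller. It lay outside the densest bins, and a homecage peak lay 237 bp away. The next, of 1112 bp (chr4:145809222-145810333) and 976 bp (chr7:15242667-15243642), lay in the pseudogenes Znf41-ps and Obox4-ps21, both in the densest bins. The widest shared regions in noncoding bodies, of 2269, 2166 and 1955 bp, lay in Vmn2r-ps15, Gm14488 and Gm6205, again in the densest bins.

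Density over all bins was somewhat lower beyond 50 kb from the gene. Its highest value was 6.42 regions per Mb (5.93 to 6.95) at 5 to 10 kb. The intervals of all classes up to 50 kb overlapped. Density was 6.16 regions per Mb (5.70 to 6.65) at 1 to 5 kb from the nearest gene end, 6.15 (5.82 to 6.49) at 20 to 50 kb, and 4.84 (4.54 to 5.16) at 100 to 200 kb. The nearest and the farthest class thus differed 1.27-fold (1.15 to 1.41), and homecage peaks 1.05-fold. Without the densest bins the learning ratio was 1.11. Over all bins the step lay between 20 to 50 kb and 50 to 100 kb, where density was 1.25 times as high on the nearer side. Densities of single classes were not computed outside the densest bins, where 452 of the 620 regions at 5 to 10 kb were left. At 20 to 50 kb 1049 of 1310 were left, and at 50 to 100 kb 769 of 900. Upstream of the nearest gene there were 5.64 regions per Mb (5.40 to 5.88) and downstream 6.01 (5.75 to 6.28), for the 79.6% of genes with a known strand. Outside the densest bins the values were 4.72 (4.51 to 4.95) and 4.70 (4.47 to 4.94). Homecage peaks numbered 133 and 135 per Mb on these sides over the whole territory.

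**Figure D3:**
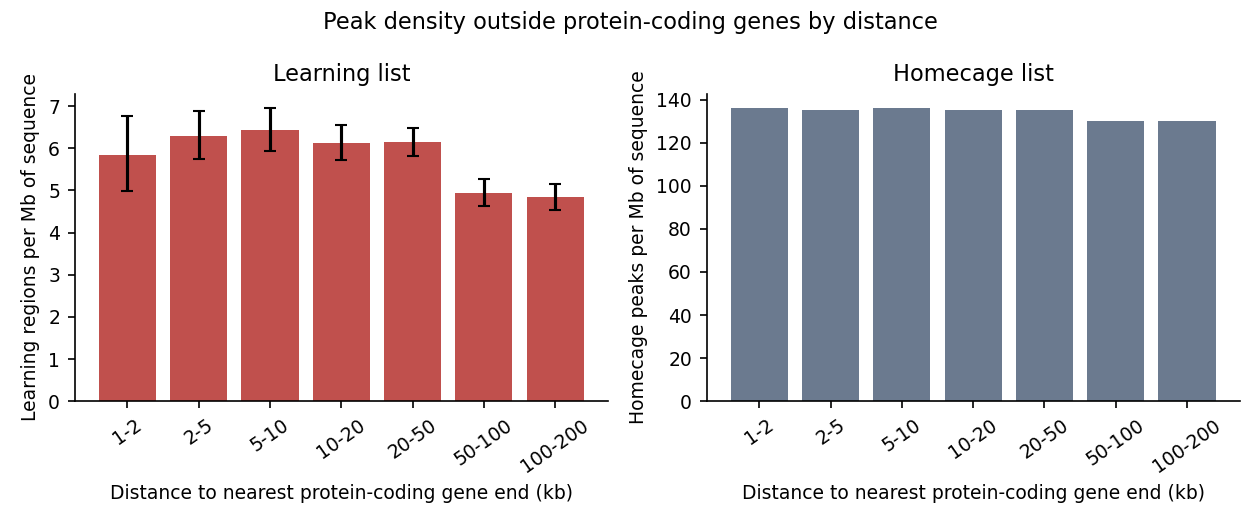
Peaks per Mb of sequence outside protein-coding genes (vertical axes, both from 0) by distance to the nearest protein-coding gene end in kb, for the near-gene regions (left, with exact 95% Poisson intervals) and for homecage peaks of the same sequence (right). The learning density stands at 5.83 to 6.42 per Mb up to 50 kb and at 4.94 and 4.84 beyond, while the homecage density stays between 130 and 136.

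Near-gene regions overlapped lncRNA or pseudogene bodies in 1024 cases (19.5%, 18.4 to 20.6%), compared with 12.1% of all autosomal learning peaks. These bodies made up 15.5% of the territory, and 16.2% of the homecage peaks there overlapped one. The lncRNA bodies as a whole held 5.92 regions per Mb (5.50 to 6.36) against 5.39 (5.22 to 5.55) in sequence with no such body. Pseudogene bodies held 14.3 per Mb (12.5 to 16.3) and transcribed pseudogenes 20.2 (15.8 to 25.5). Outside the densest bins these values fell to 6.54 and 11.2 per Mb, against 4.48 in sequence with no body. Pseudogenes resemble their parent genes, so that reads can be misplaced between them.

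The bodies with most regions were of both kinds. Vmn2r-ps15, a vomeronasal receptor pseudogene on chromosome 4, and Gm36684, a lncRNA of 160729 bp on chromosome 17, held 18 regions each, 14 of them shared in both. Znf41-ps held 14, and Snhg14, Vmn2r-ps17 and Vmn2r-ps16 held 13 each, with 6, 10 and 12 of them shared. Of these 6 bodies, Snhg14 was the one outside the densest bins.

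The starts of lncRNA genes stood out from their bodies. Within 1 kb of a lncRNA start there were 13.3 regions per Mb (11.2 to 15.6; 144 regions), 2.46 times the density in sequence with no body. The corresponding homecage ratio was 1.34. Without the densest bins the values were 11.9 per Mb and 2.64 times. Of the 144 regions 55.6% (47.1 to 63.8%) were shared.

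The lncRNA promoters that carried a region tended to hold more CpG than the others, though the sets overlapped. Of 6041 promoters of 300 bases in the territory, 62, of 58 genes, overlapped a region. Their median was 9 CG against 3 in all 6041, and 48.4% (35.5 to 61.4%) had at least 10 against 9.50%. Of the 62, 14 held 0 to 4 CG, and of the 115 promoters with 20 or more CG 17 carried a region. The share of promoters with a region rose from 0.366% (0.201 to 0.614%) at 0 to 4 CG through 1.09% and 2.83% to 14.8% (8.85 to 22.6%) at 20 or more, a 40.3-fold range. Homecage peaks on the same promoters ranged 2.72-fold, from 9.92% to 27.0% (19.1 to 36.0%). The homecage list is far longer, and a stretch of 304 bp would touch one of its peaks at 9.43% of positions in the territory. The ranges of the lists thus start from unlike levels and cannot be compared directly. Alternatives for the top class were chosen after seeing the data. Counting 1 promoter per gene left it at 14.8%, and leaving out the densest bins gave 14.9%. Regions of at least 500 bp gave 6.09%, and an overlap of at least 50% of the promoter gave 7.83%. Promoters under shared regions had a median of 15 CG and those under learning-only regions 5. Other motifs were searched on both strands by their letters alone. The full CRE letters TGACGTCA, known from CREB targets, were in 3.23% of the 62 promoters and in 0.844% of all 6041, and the AP-1 letters TGANTCA in 14.5% and 10.4%. The count behind the first value was 2 promoters. The TATA-box letters TATAAA were in 9.68% and 16.4%, and the E-box letters CANNTG in 72.6% and 80.2%.

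**Figure D4:**
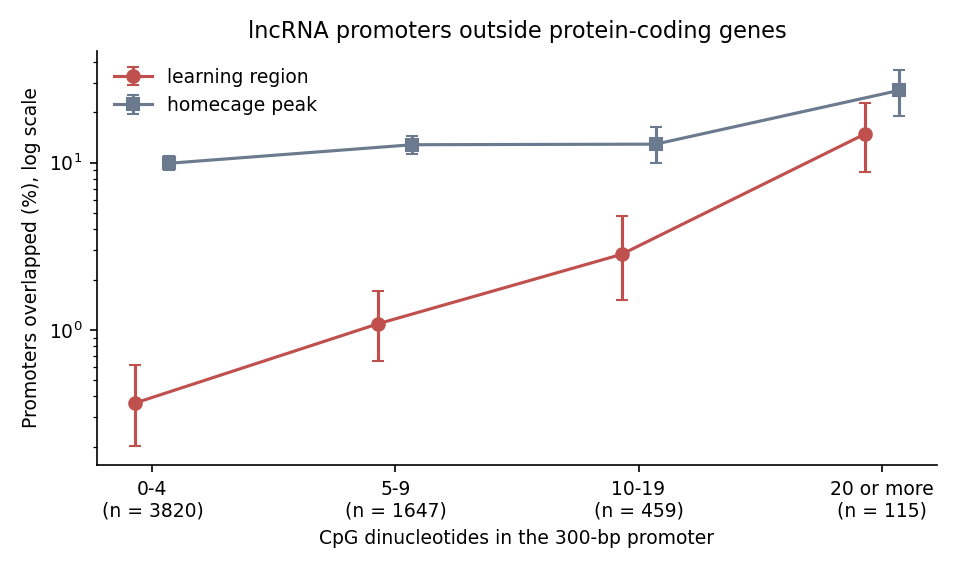
Share of 300-base lncRNA promoters overlapped (%, logarithmic vertical axis) by a near-gene region (red circles) or a homecage peak (grey squares), by the number of CpG dinucleotides in the promoter (horizontal axis, n promoters below each class), with exact 95% intervals. The learning share climbs from 0.366% to 14.8% and the homecage share from 9.92% to 27.0%.

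Single promoters show the range. The Zmiz1os1 promoter printed above lay wholly under a shared region of 1079 bp (chr14:25378380-25379458) and under a homecage peak of 1050 bp. The Lncpint promoter lay with 242 of its 300 bases under a region of 875 bp with a homecage partner of 1972 bp. The Mir9-3hg promoter lay with 108 bases under a region of 507 bp with a partner of 1017 bp. Zmiz1, the gene of a transcriptional coactivator, lay 78417 bp from the first of these regions. The 3110015C05Rik promoter lay with 165 bases under a learning-only region of 472 bp. A pair of activity-induced genes had learning-only regions nearby that reached into part of a CpG-rich lncRNA promoter. A region of 223 bp 13066 bp downstream of Ier5 overlapped 87 of the 300 bases of the Gm9530 promoter, with 43 CG. One of 172 bp 40734 bp upstream of Atf3 overlapped 35 bases of the D730003I15Rik promoter, with 28 CG. The nearest homecage peaks lay 369 and 405 bp from these regions.

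Of 268 miRNA genes in the territory, 38 (14.2%, 10.2 to 18.9%) had a near-gene region within 10 kb, while 8.13% of the territory lies that close to a region. Some miRNA genes lie together and are counted singly, as Mir181c and Mir181d are. The interval treats them as independent and is therefore too narrow. Counting also miRNA genes outside the territory, 49 miRNA genes lay within 10 kb of 52 regions, 24 of them shared. Mature sequences were listed for 44 of these genes.

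At Mir9-2, on chromosome 13, a learning-only region of 626 bp (chr13:83738341-83738966) covered the whole miRNA gene. This region lay in the lncRNA C130071C03Rik, 71262 bp downstream of Mef2c, the gene of a transcription factor of neurons, and the nearest homecage peak was 491 bp away. At Mir9-1, on chromosome 3, a shared region of 737 bp (chr3:88214525-88215261) ended 336 bp before the gene, covered the neighbouring Mir3093 and had a homecage partner of 2608 bp. At Mir9-3, on chromosome 7, a learning-only region of 306 bp (chr7:79507235-79507540) lay 1881 bp away and the shared region on the host promoter lay 9432 bp away. Each Mir9 locus also carries an antisense miR-9b gene, and peaks without strand cannot be assigned to one of the pair.

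The Mir124a loci showed the same mixture. At Mir124a-3 a learning-only region of 285 bp (chr2:180893371-180893655) lay 384 bp away. At Mir124a-1 a shared region of 394 bp (chr14:64588655-64589048) lay 1608 bp away, in the host gene Mir124a-1hg, with a homecage partner of 1121 bp. At Mir124a-2 a shared region of 731 bp lay 8749 bp away. Mirlet7i, of the let-7 family, had a shared region of 188 bp at 476 bp, within a homecage peak of 1424 bp. Mir137, known in synaptic development, had a learning-only region of 435 bp at 1706 bp. Mir760 was touched at its outermost annotated base by a shared region of 518 bp (chr3:122293068-122293585). Mir181c and Mir181d, which share their seed, lay 4596 and 4770 bp from 1 shared region of 643 bp.

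A list of 25 lncRNA genes known in brain, 22 of which were matched, held 22 regions in 8 genes, 13 of them in Snhg14. The density in the territory of these bodies was 16.7 per Mb (10.4 to 25.2), and 9.75 (4.46 to 18.5; 9 regions) without Snhg14 (left out after seeing the data), an interval that includes the 5.92 of all lncRNA bodies. Snhg14 is annotated over 1177441 bp. Snhg14 is the long transcript of the Prader-Willi and Angelman region, transcribed from the paternal allele in neurons, which carries the Snord116 and Snord115 small nucleolar RNAs and runs antisense into Ube3a. Mir9-3hg and C130071C03Rik held 2 regions each, and Neat1, Pantr1, Sox2ot, Mir124a-1hg and A330008L17Rik 1 each. Meg3, Rian, Mirg, Malat1, Miat and Rmst, also on the list, held 0, with 5, 5, 2, 1, 2 and 11 homecage peaks in their bodies. Peaks without strand cannot be assigned to Snhg14 or to a gene it overlaps.

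The 13 regions of Snhg14 lay between Ube3a and Snurf (chr7:59310838-59982494) in a gap of 672 kb, 6 of them shared, beside 65 homecage peaks in the territory of that gap. Of the 13, 11 lay within the stretch of the 17 genes with a Snord116 symbol (chr7:59861731-59904848), and 10 overlapped or lay within 1 kb of such a gene. These genes recur closely, at 77.6, 80.2 and 82.7 kb from Snurf for example, so most of the stretch lies within 1 kb of one. The 10 therefore follow largely from the position in the stretch. Of the 11 regions in the stretch, 4 were shared, and the homecage list held 12 peaks in the cluster. The widest regions of the gap were 1207 bp (chr7:59796011-59797217), beyond the cluster from Snurf, and 1022 bp (chr7:59868399-59869420), inside it, both shared, with homecage partners of 509 and 1193 bp. The Snord116 genes are near-identical copies, so the placement of peaks among them is uncertain. The other two of the 13, both shared, lay farther from Snurf among snoRNA genes known by Gm symbols. The region of 1207 bp overlapped Gm26097, and one of 225 bp lay 766 bp from Gm22258. These genes are 93 and 94 bp long, and Snord116l15 is 94 bp. The cluster is set apart here by symbol alone, and whether the Gm genes are Snord116 copies was not tested. A further 15 learning peaks of this gap, 13 of them shared, lay 203 to 265 kb from Snurf and so beyond the 200 kb of the rule. None of the 13 lay in the densest bins.

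**Figure D5:**
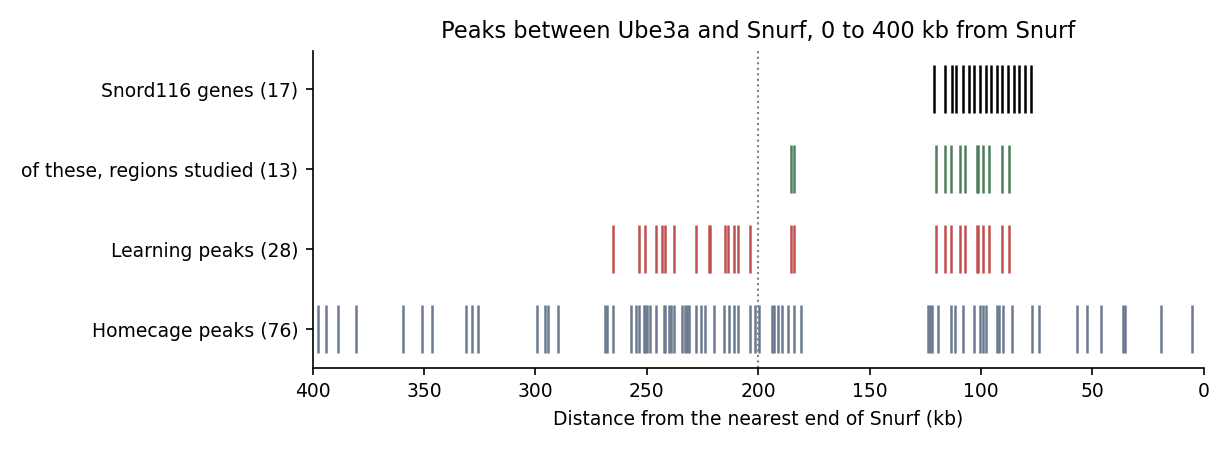
Positions of homecage peaks, all learning peaks, the near-gene regions among them and the Snord116 genes between Ube3a and Snurf, by distance from the nearest end of Snurf in kb, to scale and decreasing to the right. The dotted line marks the 200 kb limit, beyond which learning peaks are no near-gene regions. Of the 13 regions, 11 lie in the stretch of genes with a Snord116 symbol.

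Genes of lists chosen for hippocampus were then taken as nearest genes. Of all 20665 autosomal protein-coding genes 14.2% were nearest to at least 1 region. The territory around a gene averaged 44.9 kb over all genes and differed between lists, so the density per Mb of territory is given beside each share. Over the whole territory, all genes had 5.66 regions per Mb, and outside the densest bins 4.66 (4.52 to 4.80). The neural, glial and olfactory receptor lists lay between 4.46 and 6.89 over the whole territory. Which of their intervals included the value of all genes depended on the densest bins, and both readings are given for each list where they differ.

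Activity-induced genes, which neurons transcribe after stimulation, were nearest to a region in 14 of 42 cases (33.3%, 19.6 to 49.5%), with 104 kb of territory per gene. Their 24 regions had a density of 5.48 per Mb (3.51 to 8.16). Of the 24, 4 were shared (16.7%, 4.74 to 37.4%), an interval that lies just below the 38.1% of all regions. Outside the densest bins 4 of 23 were shared (17.4%, 4.95 to 38.8%), an interval that includes the 31.6% of all regions there.

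Fos, the gene of an AP-1 subunit with activity-regulated enhancers on both sides, had 3 learning-only regions downstream. They were 525 bp (chr12:85515440-85515964), 698 bp (chr12:85517760-85518457) and 156 bp (chr12:85519305-85519460) wide and lay 38166, 40486 and 42031 bp from the gene. The nearest homecage peaks were 1262, 1607 and 604 bp from them. Jun, the gene of the partner subunit, had 1 learning-only region of 446 bp (chr4:95134327-95134772) 82105 bp upstream, in the lncRNA Junos. Bdnf, which encodes a neurotrophin of synaptic plasticity, had learning-only regions of 425 and 298 bp, 31761 and 14169 bp upstream. Fosb, Nr4a3, Atf3 and Ier2 had 1 learning-only region each, and Dusp6, Inhba and Tiparp 2 each. The 4 shared regions lay near Ier5, Dusp1, Btg2 and Klf4, beside 1 learning-only region at each.

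Glutamate signalling genes were nearest to a region in 15 of 45 cases (33.3%, 20.0 to 49.0%), at 4.71 regions per Mb (2.99 to 7.07), and 10 of their 23 regions were shared. Grik2, a kainate receptor subunit, had 5 regions, 3 of them shared, and Gria1, an AMPA receptor subunit, had 4 with 1 shared. The widest were a learning-only region of 910 bp (chr8:70278771-70279680) 3200 bp upstream of the postsynaptic scaffold gene Homer3 and one of 764 bp (chr11:57348753-57349516) 18509 bp from Gria1. The nearest homecage peaks lay 3395 and 738 bp away.

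GABA signalling genes were nearest to a region in 6 of 20 cases (30.0%, 11.9 to 54.3%), at 4.46 per Mb (1.92 to 8.78). Of their 8 regions, 1 was shared (12.5%, 0.316 to 52.7%), an interval that includes the 31.6% outside the densest bins. It was 314 bp wide (chr11:42782635-42782948), lay 150044 bp downstream of the receptor subunit gene Gabrb2 and inside a homecage peak of 1162 bp.

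Neuronal transcription factor genes had the largest share, 29 of 49 (59.2%, 44.2 to 73.0%), and also the largest surroundings, with 196 kb of territory per gene. The density of their 66 regions was 6.89 per Mb (5.33 to 8.76), an interval that includes the 5.66 of all genes. None of the 66 lay in the densest bins, and outside these bins the interval (5.33 to 8.77) lay above the 4.66 of all genes. Of the 66 regions, 24 were shared. Nfib, a nuclear factor I gene, had 6 regions, of which 3 lay in the lncRNA Gm11266 under 1 homecage peak of 2529 bp. Mef2c had 5, all downstream at 47125 to 71262 bp, 2 of them in C130071C03Rik. The widest were shared regions of 938 bp near Tcf4 (chr18:69196738-69197675) and of 839 bp 58915 bp upstream of Sox11 (chr12:27401633-27402471).

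Glial genes were nearest to a region in 8 of 35 cases (22.9%, 10.4 to 40.1%), at 5.22 per Mb (2.70 to 9.11), and 1 of 12 regions was shared (8.33%, 0.211 to 38.5%). That interval also includes the 31.6%. The shared region, of 797 bp (chr10:56577719-56578515), lay 187300 bp downstream of Gja1, the connexin gene of astrocytes. Sox8 had learning-only regions of 641 and 146 bp. Housekeeping genes, with 19.3 kb of territory per gene, were nearest to a region in 7 of 29 cases (24.1%, 10.3 to 43.5%). Their 11 regions, in 0.560 Mb, had a density of 19.6 per Mb (9.80 to 35.1), and homecage peaks there had 175 per Mb. The widest was a learning-only region of 706 bp (chr11:120325795-120326500) near Actg1, a cytoplasmic actin gene. Olfactory receptor genes, silent in most neurons of the brain, were nearest to a region in 92 of 1100 cases (8.36%, 6.80 to 10.2%), at 4.55 per Mb (3.75 to 5.48). Their widest regions were a shared one of 1366 bp near Olfr419 (chr1:174276188-174277553) and a learning-only one of 689 bp near Olfr161 (chr16:3564147-3564835). The olfactory receptor interval lay below the 5.66 of all genes over the whole territory. Outside the densest bins the list had 4.36 per Mb (3.57 to 5.27; 106 regions), an interval that includes the 4.66 of all genes there. None of the 11 housekeeping regions lay in the densest bins, and their interval lay above both values.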

How the data were processed

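Pan-Kcr peaks were analysed from 1 learning and 1 homecage library, assigned by their titles. The authors deposited for each library a list of broad peaks with 4 columns (chromosome, start, end, name) and no strengths, counts or depths. The submitters' processing notes name Trimmomatic, BWA, MACS2 and mm10, and the peak names in the deposited files give a p-value threshold of 0.01; the use of input libraries, read filters and pooling are not given in the sources used here. mm10 is GRCm38, and positions are 1-based.

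Positions of 20665 protein-coding, 12408 lncRNA and 9319 pseudogene entries on chromosomes 1 to 19 came from RefSeq (GRCm38.p6), with strand from its promoter table for 79.6% of protein-coding genes. The densest bins are the 1% of 1-Mb bins with the most learning peaks. The regions, gene lists and measures were chosen with earlier results of these data known. Named were the 3 widest regions of each class (shared or not, in a noncoding body or not), the 6 genes nearest to most regions, the 4 gaps and 5 noncoding bodies with most regions, the 2 genes of each list with the widest region, and regions overlapping a miRNA gene (some that this rule names are not reported here); single genes beyond these, the printed promoters and the CpG classes were chosen after their values were seen. Alternatives changed the minimum width, merging, distance limits, overlap rule, homecage list, gene table and the densest bins. The software was scipy 1.17.1, numpy 2.4.6, matplotlib 3.10.9 and pandas 2.3.3 under Python 3.11.15, and the functions were tested on simulated lists. The other 10 libraries were not used here.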

Additional observations from a re-analysis of the deposited data

Results flagged for a closer look

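Learning peaks that meet the same distance rule also lay on the sex chromosomes, which the comparisons above do not use, at numbers above the 3 that a count of 0 allows. Chromosome X held 105 such peaks, 1.23 per Mb of territory, 78 of which overlapped a homecage peak, beside 759 homecage peaks (8.89 per Mb). Chromosome Y held 29, or 0.467 per Mb, with 21 overlapping a homecage peak, beside 462 homecage peaks (7.44 per Mb). Both densities lay below the lowest autosomal values of 3.52 learning regions and 122 homecage peaks per Mb.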

How the results depend on the processing

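No paired analysis was possible because there is 1 pan-Kcr library per condition, and no replicate could be left out. Of the 110 values recomputed, 71 remained inside the counting interval of the reported one (or within 1.5 times, for counts) and 39 moved out of it; the cause of the moves was not tested. With peaks of at least 500 bp, 757 regions were left, 47.0% shared and 24.7% in noncoding bodies. Their near-to-far density ratio was 1.84, the median widths were 668 and 608 bp (shared and learning-only), 32.9% had a neighbour within 10 kb, and 6 lay in the brain lncRNA genes. The shares of genes nearest to a region became 2.38% (activity-induced), 8.89% (glutamate), 0% (GABA), 22.4% (transcription factors), 5.71% (glial), 10.3% (housekeeping) and 0.727% (olfactory receptors), against 2.41% of all genes. Merging peaks below 1 kb gave a shared width of 377 bp and neighbours for 34.1%. An upper distance of 100 kb gave 41.2% and 13 regions in brain lncRNA genes. Without the densest bins 31.6% were shared, with a ratio of 1.11, a shared width of 336 bp and neighbours for 27.4%. Without Gm and Rik genes the ratio was 1.10. Requiring overlap of 50% of the region gave 26.7% shared and widths of 327 and 297 bp. A homecage peak within 500 bp gave 52.7% and a shared width of 334 bp. The widest homecage peaks gave 12.8%, 392 and 294 bp, and homecage peaks of at least 350 bp gave 29.2% and 370 bp. Neighbours within 5 and 20 kb were found for 31.9% and 48.0%. Widening noncoding bodies by 1 kb gave 22.4%. Of the alternatives for CpG-rich lncRNA promoters, which were chosen after seeing the data, regions of at least 500 bp gave 6.09% and an overlap of 50% of the promoter 7.83%. Without Snhg14, also left out after seeing the data, 9 regions lay in brain lncRNA genes. Read depth is unknown, so absence from a list does not show absence of the mark.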

Other observations

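Small RNA genes other than miRNAs also had regions nearby, at low counts. Within 1 kb of transfer RNA genes, whose products carry amino acids to the ribosome, there were 10 regions (20.1 per Mb, 9.64 to 37.0), 4 of them shared, while homecage peaks there had 117 per Mb against 132 in sequence with no lncRNA or pseudogene body. None of these 10 lay in the densest bins. Within 1 kb of spliceosomal and other small nuclear RNA genes there were 13 regions, 10 of them shared. Small nucleolar RNA genes had 17 within 1 kb (15.3 per Mb, 8.92 to 24.5), of which 10 lay at genes with a Snord116 symbol. Small nuclear and small nucleolar RNA genes are repeated in near-identical copies. Transfer RNA genes also recur in similar sets, as near Fcgr3 on chromosome 1, so placement is uncertain for all of these.

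Outside the densest bins, the genes nearest to most regions were Gm52720 and Mucl2 with 16 each, then Slc16a14 and Snurf with 13 each. The group near Slc16a14 was cut by a bin edge. The gap between Slc16a14 and A530032D15Rik held 30 regions, 17 of them in the densest bins. Next came Chil4 with 12, Scaf8 and Vmn1r238 with 11 each, and Gm40363, Pramel45, Slc39a10 and Vmn1r2 with 10 each. Gm10354, Gm5373 and Ppara had 8 each. Agr3, Bod1, Cdh7, Gm1988, Gm45988, Tmem161b and Xkr9 had 7 each. Myt1l, a transcription factor gene of neurons, also had 7, 4 of them shared, and Irf2bp2 had 7, 1 of them shared. The gap between Wnt7b, a Wnt ligand gene, and Ppara held 12 regions, 11 of them shared, and 42 homecage peaks.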
